A study of Mus musculus with 4 samples.

Results

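A set of 9 genes of the neuromuscular junction and of muscle atrophy was followed in the mouse lower eyelid at 3 months and at 2 years of age. The genes were chosen by name: the acetylcholine receptor subunits Chrna1, Chrnb1, Chrnd and Chrne, the receptor kinase Musk, the myogenic factors Myog and Myod1, and the ubiquitin ligases Trim63 and Fbxo32. The deposited tables list 15816 genes in all, among them 6 of the 9 members, while 3 members (Chrnd, Musk and Myod1) were in no table. All animals were wild-type (WT) and of the inbred C57BL/6 strain, and the 4 libraries came from either sex at 3 months (young) and at 2 years (old). There was 1 library per group, so a difference between groups has no replicate check, and the number of animals behind a library is not stated in the labels. A lid library mixes skin, meibomian gland, conjunctiva and the orbicularis muscle, the striated muscle that closes the lids.

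The nerve ending on a muscle fibre releases acetylcholine, which opens a receptor built from alpha, beta, delta and epsilon subunits in the adult and from a gamma subunit in place of epsilon in the embryo. Agrin from the nerve acts through Lrp4 and the kinase Musk to gather the receptors under the nerve ending, and Rapsn anchors them there. Loss of the nerve is known to raise the transcripts of the receptor subunits and of Musk along the fibre through myogenin (Myog), a factor that like MyoD (Myod1) binds E-box motifs in promoters. Trim63 (MuRF1) and Fbxo32 (atrogin-1) attach ubiquitin to muscle proteins and are known for their induction in wasting muscle. Acta1, skeletal alpha-actin of the thin filament, served as the reference for muscle content.

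The promoters of the members whose levels are described below are shown because E-boxes are the sites through which myogenic factors act on junction genes. RefSeq promoter sequences of the GRCm38.p6 build were found for 6 of the 9 members (Chrna1, Chrnb1, Chrne, Musk, Myog and Trim63) and for Acta1. Each run below is the 250 bases before a start of the gene, 5′ to 3′ on the gene's own strand. For Chrnb1, Chrne and Musk that start lies inside the RefSeq gene span, so part of the run lies in the gene. Capitals mark each E-box (CANNTG, which reads the same on both strands) and, in Chrne, the N-box (CCGGAA, searched on both strands).
Chrna1, chr2:73580339-73580588, minus strand: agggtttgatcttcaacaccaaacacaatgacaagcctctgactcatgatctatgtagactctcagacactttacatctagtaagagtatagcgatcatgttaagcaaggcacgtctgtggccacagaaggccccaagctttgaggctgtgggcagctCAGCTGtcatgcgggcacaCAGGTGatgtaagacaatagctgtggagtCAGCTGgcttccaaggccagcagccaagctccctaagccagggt
Chrne, chr11:70619195-70619444, minus strand: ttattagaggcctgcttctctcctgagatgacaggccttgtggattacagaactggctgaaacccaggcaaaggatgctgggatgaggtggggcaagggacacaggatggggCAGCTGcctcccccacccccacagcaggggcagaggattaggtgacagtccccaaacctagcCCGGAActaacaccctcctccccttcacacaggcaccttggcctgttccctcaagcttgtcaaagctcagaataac
Chrnb1, chr11:69795938-69796187, minus strand: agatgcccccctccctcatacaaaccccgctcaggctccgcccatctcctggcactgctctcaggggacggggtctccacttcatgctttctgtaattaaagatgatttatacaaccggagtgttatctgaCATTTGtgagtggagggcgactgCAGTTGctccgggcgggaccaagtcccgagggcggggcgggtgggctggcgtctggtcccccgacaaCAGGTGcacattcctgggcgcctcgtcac
Myog, chr1:134289754-134290003, plus strand: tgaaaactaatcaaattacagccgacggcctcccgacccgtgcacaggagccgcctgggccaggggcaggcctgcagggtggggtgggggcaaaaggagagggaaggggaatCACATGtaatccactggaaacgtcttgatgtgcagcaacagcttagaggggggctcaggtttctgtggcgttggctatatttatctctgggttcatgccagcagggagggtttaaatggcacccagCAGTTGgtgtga
Trim63, chr4:134314870-134315119, plus strand: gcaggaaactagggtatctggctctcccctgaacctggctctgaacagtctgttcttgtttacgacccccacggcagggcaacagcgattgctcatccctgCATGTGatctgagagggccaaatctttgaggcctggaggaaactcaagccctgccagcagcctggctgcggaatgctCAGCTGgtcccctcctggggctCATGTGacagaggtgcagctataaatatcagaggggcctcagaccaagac
Acta1, chr8:123894776-123895025, minus strand: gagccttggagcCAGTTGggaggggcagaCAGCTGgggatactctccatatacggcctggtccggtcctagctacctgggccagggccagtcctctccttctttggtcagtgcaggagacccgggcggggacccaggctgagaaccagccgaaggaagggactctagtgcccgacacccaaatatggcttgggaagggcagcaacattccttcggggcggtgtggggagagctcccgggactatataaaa

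At least 1 E-box lay in each of the 6 member promoters, against 66.2% of all 32851 promoters of the same length. The form CAGCTG, which is itself an E-box, lay in 4 of the 6 (Chrna1 with 2 copies, Chrne, Musk and Trim63) and in Acta1, against 13.0% of all promoters. In Chrna1 the E-box nearest to the start began 44 bases before it, in Trim63 50 bases, in Chrnb1 29 bases and in Myog 12 bases. This Chrnb1 E-box and the CAGCTG of Musk, 68 bases before the start used, lie inside the RefSeq gene spans and not before them. The N-box, known from the Chrne promoter as a site for factors of the Ets family, began 76 bases before the start of Chrne. It lay in 12.0% of all promoters and in no other of the 6 member promoters found. Chrnd, Myod1 and Fbxo32 had no promoter sequence to search. A match is a description of these letters and not evidence of binding.

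The authors deposited RPKM values (reads scaled to gene length and library total), in tables that list genes of at least 0.125 RPKM. A gene that is not listed therefore has a value below 0.125 RPKM or none. The 4 tables held 14800 to 15299 genes, with 3.16 to 3.91 gigabases of summed coverage per library, lowest in the old female. In low genes the coverage values piled up at multiples of 100 bases, which made up 25.8% of the values under 5000 where evenly spread values would give 1%. A coverage of 100 bases was therefore taken as 1 read length when the depth behind a member is given. Skeletal muscle markers were present in every library: 28 of the 30 fixed muscle reference genes were listed in all 4, and Myh7, the slow myosin heavy chain, in none. Of the 4 heart markers, Myh6 and Nppa were listed in none, while Tnnt2 (1.53 to 2.50 RPKM) and Tnni3 (0.223 to 0.683) were listed in all 4.

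In males Acta1 went from 51.1 RPKM at 3 months to 148.9 at 2 years, and in females from 44.4 to 274.7. Both old libraries lay above both young ones, by 2.92-fold in males and 6.18-fold in females. Over the muscle reference genes, the contractile and calcium handling proteins of the fibre, the median log2 ratio of old to young was 1.46 in males (28 genes) and 2.30 in females (29 genes). In a lid library, more muscle fibres and more RNA per fibre cannot be told apart.

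Among the receptor subunits, the alpha subunit gene Chrna1 (chromosome 2, 73563281 to 73580338, mm10), which carries the acetylcholine binding site, was listed in males at 0.239 RPKM at 3 months and 0.250 at 2 years. In females it was listed at 2 years alone, at 0.420 RPKM. The authors' deposited table of the female comparison gives 0.0640 RPKM at 3 months and a fold of 6.57. That table holds no fold smaller than 2.00 in size. The male libraries thus differed by 1.05-fold while the female libraries stood furthest apart, with the old female highest. The listed values rested on 4385, 4700 and 6400 bases of coverage, or 43.9, 47.0 and 64.0 read lengths.

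Chrne (chromosome 11, 70614883 to 70619194), the epsilon subunit of the adult receptor, was listed only in the old female library, at 0.374 RPKM. That is at least 2.99-fold above the listing floor of 0.125 RPKM. The authors' deposited table gives 0.0903 RPKM for the young female and a fold of 4.14. The old female value rested on 2097 bases, or 21.0 read lengths. In that library the epsilon subunit stood at 89.0% of the level of the alpha subunit, both per length. Chrne lies across the gene 4930544D05Rik on the opposite strand, which was listed in no library, and no source used here gives the strand setting of the counting. Chrng, the gamma subunit of the embryonic receptor, was listed in none, which at this depth does not show that it was absent.

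Chrnb1 (chromosome 11, 69784036 to 69795937), the beta subunit, had the highest level of the subunits in the libraries. The young and old male libraries had 1.54 and 1.48 RPKM, and the female ones 1.31 and 1.99. The old female was the highest and the old male lay between the young libraries, so the ages overlapped. The ratio of old to young was 0.962 in males and 1.51 in females. With limma across all genes, Chrnb1 was higher at 2 years by 0.17 ± 0.21 on the log2(RPKM + 1) scale (SE, 2 old against 2 young libraries), with a Benjamini-Hochberg adjusted p of 1.0. That SE rests on how far age differences varied between the sexes, as no group has a replicate. It is moderated, so it joins the gene's own variation with that of other genes of like level. Leaving out 1 library at a time moved the Chrnb1 difference between 0.03 (without the old female) and 0.30 (without the old male). Chrna1 stood at 15.5% of Chrnb1 in males at 3 months, at 16.8% at 2 years, and at 21.2% in old females.

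**Figure D1:**
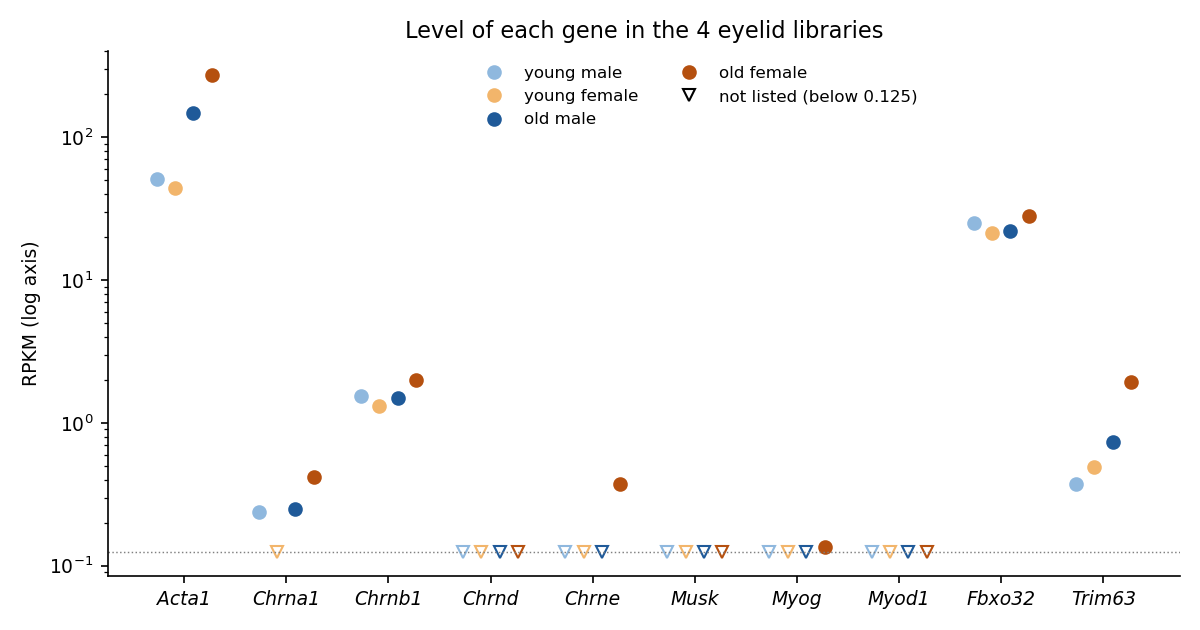
RPKM (log axis) of Acta1 and the 9 members in the 4 libraries, 1 point per library, with open triangles at 0.125 RPKM for genes that a library does not list. Acta1 is higher in both old libraries, Fbxo32 stays between 21.5 and 28.1 RPKM, and Chrne and Myog are listed in the old female library alone.

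Musk and the delta subunit gene Chrnd were below 0.125 RPKM in all 4 libraries, so nothing can be said of their direction at this depth. The same holds for Myod1, the factor that starts the muscle programme. Myog (chromosome 1, 134290004 to 134292548), which acts after it in differentiation, was listed only in the old female library, at 0.134 RPKM. That value lay just over the floor, 1.07-fold above it, and rested on 700 bases, or 7 read lengths. The authors' deposited table gives 0.0324 RPKM for the young female and a fold of 4.15.

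Chrne and Myog were 2 of the 342 genes listed in the old female library alone, which make up 2.16% of all 15816. In females, 3 tabulated members (Chrna1, Chrne and Myog) were not listed at 3 months, and all 3 were listed at 2 years, as were 77.2% of the 1019 genes not listed in the young female. In males, Chrne and Myog were not listed at either age, while 46.3% of the 924 genes not listed in the young male were listed in the old. These shares are over genes listed in at least 1 of the 4 libraries. Chrne and Myog are counted only because the old female lists them, so nothing is read from their crossing.

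Among the ligases, Trim63 (chromosome 4, 134315120 to 134329629), which targets proteins of the thick filament, had 0.373 RPKM at 3 months and 0.738 at 2 years in males, and 0.492 and 1.93 in females. Both old libraries lay above both young ones, by 1.98-fold in males and 3.92-fold in females. Coverage was 29.9, 60.7, 38.8 and 128.3 read lengths in the same order. Of the 3 members listed in all 4 libraries, Trim63 alone was higher at 2 years in both sexes, as were 24.2% of the 14281 genes listed in all 4. It was the 1 member listed in both female libraries that was at least 2-fold higher in the old, against a background of 10.1% of 14510 genes, and of 20.2% of the 3675 genes with a mean under 2 RPKM. In males no member was at least 2-fold higher (background 2.68% of all genes listed in both, and 6.8% of those with a mean under 2 RPKM) and none was 2-fold lower in either sex (background 4.53% in females and 1.12% in males). The mean of Trim63 over the libraries, 0.884 RPKM, was under the 1 RPKM set for the main test. Without that filter limma gave a difference of 0.66 ± 0.21 (log2(RPKM + 1), SE, 2 against 2 libraries) with an adjusted p of 0.980.

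Fbxo32 (chromosome 15, 58175879 to 58214892), the other ligase, was the most abundant member. The young and old male libraries had 25.0 and 22.2 RPKM, and the female ones 21.5 and 28.1. The ages overlapped, with ratios of old to young of 0.890 in males and 1.31 in females. These values rested on 6224 to 7363 read lengths, the most of any member. With limma the averaged difference was 0.11 ± 0.23 (log2(RPKM + 1), SE, 2 against 2 libraries), adjusted p 1.0. It was 0.27 without the old male, 0.21 without the young male and 0.0021 without the young female, and its direction turned without the old female, to -0.06. Fbxo32 lies across the antisense gene Gm15943, which was listed in no library. In males Trim63 amounted to 1.49% of Fbxo32 at 3 months and 3.32% at 2 years, and in females to 2.29% and 6.86%. That share was 2.23-fold higher at 2 years in males and 2.99-fold higher in females, and as a ratio within a library it does not depend on the scaling between libraries.

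**Figure D2:**
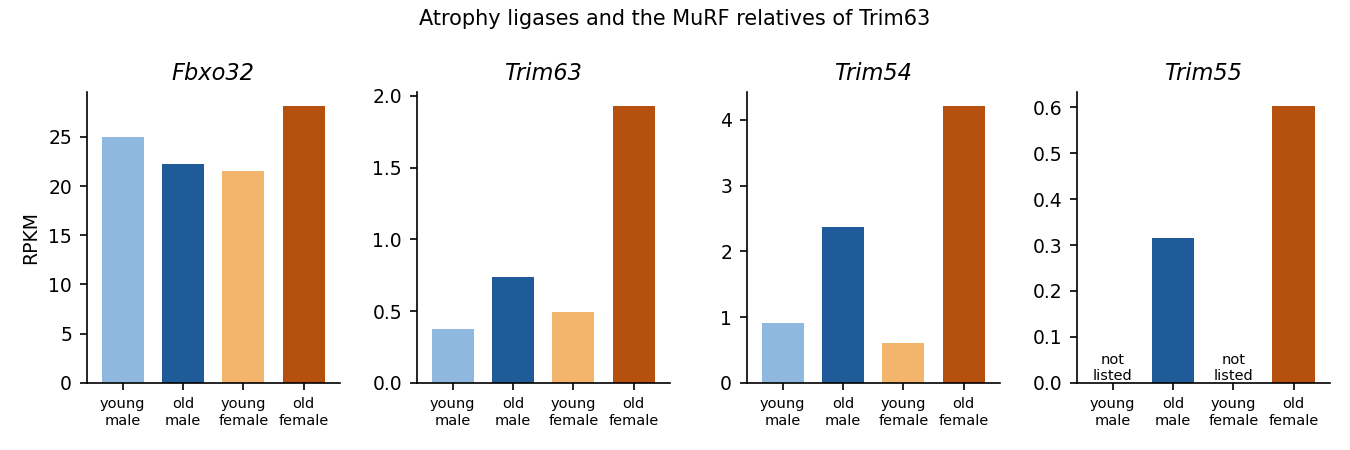
RPKM of Fbxo32, Trim63 and the Trim63 relatives Trim54 and Trim55 in the 4 libraries, 1 bar per library and a separate axis from 0 for each gene. Fbxo32 has similar bars at both ages, while the other ligases are higher in both old libraries, and Trim55 is listed in these alone.

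Only Chrnb1 and Fbxo32 had a mean of at least 1 RPKM and entered the main fit of 12094 genes. On its log2(RPKM + 1) scale, 0 of these 2 were 2-fold higher in old females (background 5.33%) or males (0.827%), and 0 were 2-fold lower (3.37% and 0.215%). With limma no gene passed the adjusted threshold of 0.05 (background 0% in either direction), although 355 genes had an unadjusted p under 0.05. Acta1 itself had a difference of 2.06 ± 0.37 (log2(RPKM + 1), SE) and an adjusted p of 1.0. The fit has 1 residual degree of freedom, so the absence of calls does not show that the levels were alike. Each fit without 1 library drops the sex term. Without the old male, the old female alone was set against both young libraries, with the spread taken from the young male against the young female, and it is assumed to vary like them. In that fit 153 genes passed, 114 higher and 39 lower, and Acta1 was among them (adjusted p 0.0406, range 0.0406 to 1.0 over all alternatives), but Chrnb1 (adjusted p 0.455) and Fbxo32 (0.528) were not.

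Set against Acta1, the members differed in how closely they followed its level. Per 100 RPKM of Acta1, Fbxo32 had 48.9 RPKM at 3 months and 14.9 at 2 years in males, and 48.4 and 10.2 in females. The young libraries were close to each other and both old ones were lower, by 3.28-fold in males and 4.72-fold in females. Chrnb1 had 3.02 and 0.997 RPKM per 100 of Acta1 in males and 2.96 and 0.723 in females, 3.03-fold and 4.09-fold lower at 2 years. Chrna1 had 0.468 and 0.168 in males, 2.79-fold lower at 2 years, and 0.153 in old females. Trim63 stayed closer to Acta1. It had 0.730 and 0.496 RPKM per 100 of Acta1 in males and 1.11 and 0.703 in females, 1.47-fold and 1.58-fold lower at 2 years. No test was made of these ratios.

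**Figure D3:**
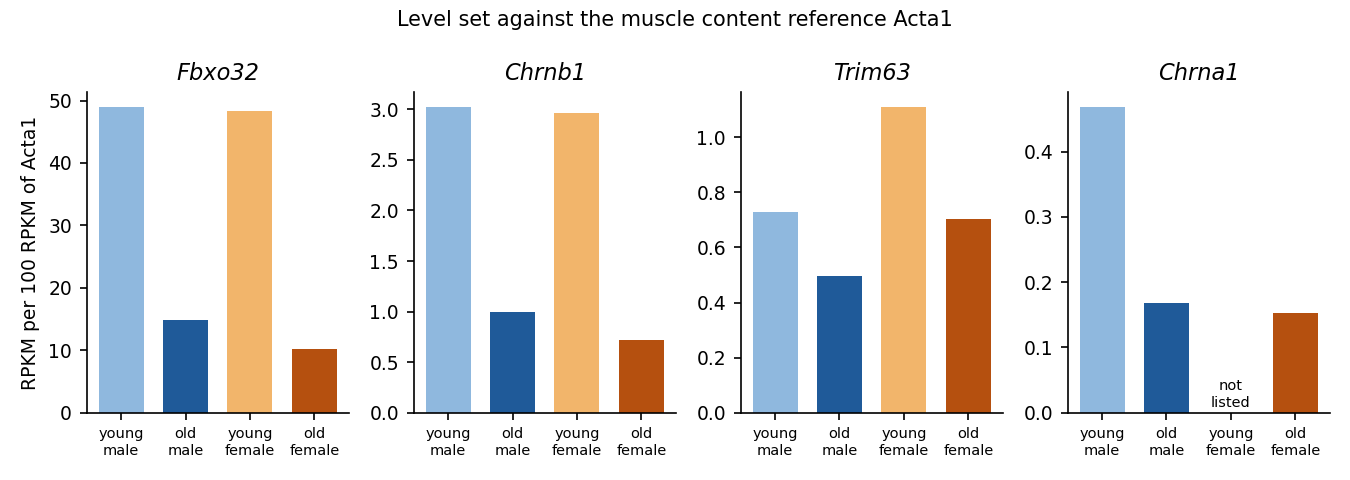
RPKM of Fbxo32, Chrnb1, Trim63 and Chrna1 per 100 RPKM of Acta1, 1 bar per library and a separate axis from 0 for each gene. The bars of Fbxo32 and Chrnb1 are shorter at 2 years by at least 3-fold in each sex, those of Trim63 by less than 2-fold, and Chrna1 is not listed in the young female.

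A ratio to Acta1 that is at least 2-fold lower at 2 years was the rule for genes of the lid, since Acta1 is a muscle gene: it was found in 95.7% of all genes listed in both female libraries and in 93.4% in males. For 2 of 3 members in females (Fbxo32 and Chrnb1) and 3 of 4 in males (with Chrna1), the ratio was at least 2-fold lower. Among the other muscle reference genes it was so in 7.14% (2 of 28) in females and 3.7% (1 of 27) in males. By its age ratio, Fbxo32 lay below 28 of the 29 muscle genes in females, where Tnni1, the slow troponin I, was lower, and below all 28 in males. Chrnb1 lay above Tnni1 alone in each sex. Trim63 lay within their range, above 7 of 29 in females and 2 of 28 in males.

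**Figure D4:**
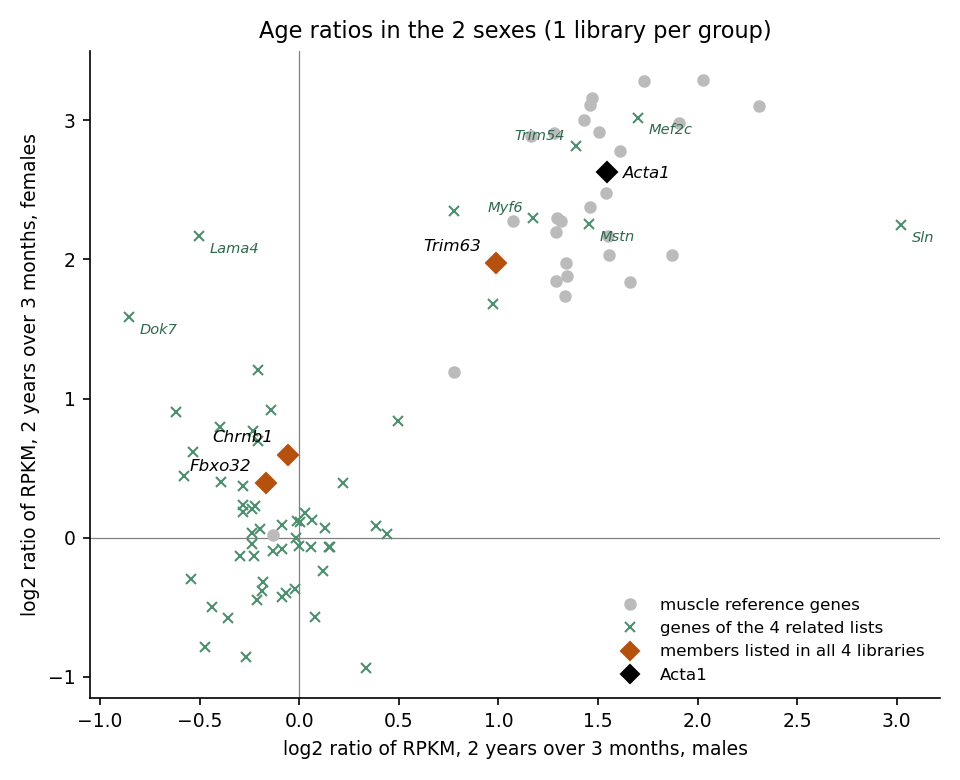
Log2 ratio of RPKM at 2 years over 3 months in males (x axis) and females (y axis), 1 point per gene, for the muscle reference genes, the genes of the 4 related lists and the members listed in all 4 libraries. Trim63 lies beside the muscle genes at 0.99 and 1.97, and Chrnb1 (-0.06 and 0.60) and Fbxo32 (-0.17 and 0.39) lie near 0 with most of the related genes.

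The other genes of these pathways were described by 4 lists: junction, denervation, myogenic factors and atrophy. Together they hold 72 genes, 62 of them listed in at least 1 library. Taking the plain RPKM ratio of genes listed in both libraries of a sex, 5 genes were at least 2-fold higher at 2 years in both sexes (Sln, Myf6, Mef2c, Trim54 and Mstn) and 0 were 2-fold lower in both. Of the 14281 genes listed in all 4 libraries, 1.69% were 2-fold higher and 0.28% 2-fold lower in both sexes. From each list the 4 genes with the largest averaged difference among those with a mean of at least 1 RPKM are named. The others named here were chosen after their values were seen: Rapsn, Dok7, Agrn, Myf6, Cdh15, Ncam1, Trim55, Foxo1 and Foxo3, and the genes said to be listed in no library.

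Of the 19 junction genes, 16 were listed in both libraries of each sex, and in females 4 reached a 2-fold higher level at 2 years, in males 0 (background 10.1% and 2.68% of all genes by plain ratio). Their median log2 ratio was 0.0054 in females and -0.21 in males, where all genes had 0.11 and -0.02. Dok7, the adaptor that activates Musk, had 2.67 RPKM at 3 months and 1.48 at 2 years in males, and 1.19 and 3.58 in females. Rapsn had 0.539 and 0.467 in males and 0.427 and 0.981 in females. Both genes were thus lower in the old male than in the young male and higher in the old female than in the young female. Agrn, which epithelia and vessels also make, had 14.9 and 12.7 RPKM in males and 14.5 and 13.3 in females, and Lrp4 2.18 and 1.61 in males and 2.58 and 1.83 in females.

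Of the junction genes named for the size of their averaged difference, Lama4, a laminin chain of the synaptic and vascular basement membrane, had a log2 ratio of 2.17 in females and -0.50 in males. Scn4a, the sodium channel of the fibre, had 0.84 and 0.49, the neuregulin receptor gene Erbb3 -0.45 and -0.21, and Lrp4 -0.49 and -0.44. In the same libraries the summed level of 3 endothelial markers was 0.808 RPKM in the young female and 6.83 in the old female, and 1.01 and 1.89 in the males. Their part in the Lama4 values was not tested.

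Of the 13 denervation genes, 8 were listed in any library. Chrng, the embryonic myosin Myh3 and the perinatal myosin Myh8, all known to return in denervated or regenerating fibres, were listed in none. As for Musk and Chrnd, nothing can be said of their direction at this depth. Ncam1, an adhesion molecule that spreads over denervated fibres, was listed only in the old female, at 0.197 RPKM, not far above the floor. For the young female the authors' deposited table gives 0.0697 RPKM, and a fold of 2.83. The 7 genes listed in both libraries of each sex had median log2 ratios of -0.07 in females and -0.02 in males, and 1 was at least 2-fold higher in each sex (background 10.1% and 2.68%). That gene was Sln, sarcolipin, an inhibitor of the calcium pump, with 8.12-fold in males and 4.74-fold in females. It had 0.271 RPKM at 3 months and 2.21 at 2 years in males, and 0.276 and 1.31 in females. Both young values lay not far above the listing floor of 0.125 RPKM. On the log2(RPKM + 1) scale its difference was 1.33 in males and 0.86 in females, under 2-fold in females. Acta1 was 2.92-fold higher in males and 6.18-fold in females. Hdac4, a histone deacetylase that acts upstream of myogenin after denervation, had log2 ratios of 0.40 in females and -0.39 in males. Gadd45a, a stress gene of denervated muscle, had -0.57 and 0.08, and Runx1, a factor induced in denervated muscle, -0.07 and 0.16.

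Of the 16 myogenic genes, 11 were listed. The satellite cell genes Pax7, Myf5, Megf10 and Calcr were listed in none, so nothing can be said of their direction at this depth. Myf6 (MRF4), the myogenic factor of mature fibres, had 0.317 RPKM at 3 months and 0.717 at 2 years in males, and 0.249 and 1.23 in females, 2.26-fold and 4.92-fold higher. Mef2c, a partner of the myogenic factors that vessels and immune cells also express, had 0.580 and 1.89 in males and 0.498 and 4.04 in females, 3.25-fold and 8.11-fold higher. Per 100 RPKM of Acta1, Mef2c had 1.14 and 1.27 in males and 1.12 and 1.47 in females. The median log2 ratio over the 10 genes listed in both libraries was -0.15 in females and 0.14 in males, with 2 genes at least 2-fold higher in each (background 10.1% and 2.68%). Cdh15, M-cadherin of satellite cells, was listed in both old libraries (0.169 in the male and 0.170 in the female) and in neither young one. Both values lay not far above the listing floor of 0.125 RPKM. In the authors' deposited male comparison the young value was 0.0579 RPKM and the fold 2.93, while their female comparison does not hold Cdh15. Id1, an inhibitor of the myogenic factors that many cells express, had log2 ratios of -0.94 in females and 0.33 in males. Id2, a relative of Id1, had 0.13 and 0.07, and Mef2d -0.40 and -0.07.

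All 27 atrophy genes were listed in at least 1 library. Over the 26 listed in both libraries of each sex the median log2 ratio was 0.18 in females and -0.14 in males, and 3 reached a 2-fold higher level at 2 years in females and 2 did in males. The background was 10.1% and 2.68% of all genes, whose medians were 0.11 and -0.02. Trim54 (MuRF3), a relative of Trim63 at the Z-disc, had 0.904 RPKM at 3 months and 2.37 at 2 years in males, and 0.598 and 4.21 in females. Per 100 RPKM of Acta1 it had 1.77 and 1.59 in males and 1.35 and 1.53 in females. Trim55 (MuRF2), a further relative, was listed in both old libraries (0.315 and 0.603) and in neither young one. Mstn, myostatin, the secreted inhibitor of muscle growth, had 0.666 and 1.83 in males and 0.598 and 2.85 in females. Per 100 RPKM of Acta1 that is 1.30 and 1.23 in males and 1.35 and 1.04 in females. The general atrophy regulators Foxo1 and Foxo3, which switch on both ligases in wasting muscle, had log2 ratios of 0.04 and 0.19 in females and -0.24 and -0.28 in males. Bnip3, a mitophagy receptor, had 0.92 and -0.14, and Eif4ebp1, which holds back translation, 0.70 and -0.21 in females and males.

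Markers of other cells also differed between the libraries. The summed level of 4 fibroblast genes was 29.2 RPKM at 3 months and 73.8 at 2 years in males and 25.5 and 199.3 in females. That of 4 keratinocyte genes was 6746 and 6937 in males and 7583 and 3253 in females. The 6 Schwann cell genes, markers of the nerve sheath, summed to 39.6 and 45.2 in males and 54.1 and 32.7 in females. Fibroblast genes were thus higher in both old libraries, while the other sums went in opposite directions in the sexes. The 5 genes of the meibocyte, the lipid cell of the lid gland, summed to 6984 and 5208 RPKM in males and 2855 and 9999.8 in females, lower in the old male and higher in the old female, the same signs as Fbxo32, Chrnb1 and Dok7. The sum of 3 leukocyte genes had these signs too, with 63.3 and 47.6 in males and 45.7 and 50.9 in females. Opposite signs in the sexes were found in 59.4% of the 14281 genes listed in all 4 libraries, so shared signs set none of these apart. The 4 smooth muscle genes summed to 27.1 and 51.4 in males and 18.6 and 61.6 in females, higher in both old libraries. Their part in the levels of Fbxo32, Chrnb1 and the related genes was not tested.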

How the data were processed

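Total RNA of the lower eyelid was sequenced in 4 libraries. TopHat, Cufflinks and mm10 appear in the submitters' processing notes without versions or roles, and gene models and strand are not stated there. Per the file headers the authors' values are RPKM, scaled to gene length and library total. A second deposited column, headed as a raw count, holds summed base coverage (signal), so no count test was run. The authors' own comparison tables, per the file names made with Cyber-T, hold a signed fold (ratio, or a signed score where lower), a p-value and a Bonferroni p-value. The p-values deposited by the authors rest on variances that no source used here states. For the 4 members in the female table the deposited Bonferroni values are 8.48e-08 to 1.91e-05, and the male table holds 0 members. These tables hold 2733 and 988 genes, 11.6% and 4.18% of the 23650 by which the p-values were multiplied. No fold in them is smaller than 2.00 in size, so a member is found there only if it differed at least 2-fold. The deposited folds of Chrna1, Chrne, Myog and Trim63 are seen for that reason and are no separate support. All 6057 values found in both kinds of table were equal within 0.0001 RPKM, so these tables also gave values below the listing floor.

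Here 2 symbols on more than 1 row were left out. Genes with a mean of at least 1 RPKM (unlisted as 0) entered limma 3.58.1 in R 4.3.3 on log2(RPKM + 1), with age and sex as terms, an intensity trend and Benjamini-Hochberg adjustment over 12094 genes. The test was tried on simulated data with independent noise, which is no support for the differences reported here. Its p-values reflect nothing beyond the spread between these 4 libraries. An exact permutation test of 2 against 2 libraries cannot go below p = 0.333 (two-sided). Plain ratios use genes listed in both libraries. Alternatives were other pseudocounts, filters and scalings, each library left out (without the sex term), and another muscle reference. Named were the members, Acta1 and, from each list, up to 4 genes with the largest averaged age difference among those entering limma. Members with a mean of at least 1 RPKM and a range of at least 1 (log2) were to be matched to their nearest genes, and 0 met this. Some list genes are not reported here and are in no count of the lists. Members and lists were chosen with earlier results of these data known. Deposited positions match RefSeq GRCm38.p6 except at the upper ends of Chrnb1 (69795966 in RefSeq) and Chrne (70619213 in RefSeq). Promoter sequences are RefSeq's.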

Additional observations from a re-analysis of the deposited data

Results flagged for a closer look

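In each of the following genes the old and young libraries differed in opposite directions in the sexes. With 1 library per group the difference between the sexes was not tested. Such opposite signs were found in 9 of the 20 named genes listed in all 4 libraries and in 59.4% of the 14281 genes listed in all 4.

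The log2 ratio of old to young was 0.60 in females and -0.055 in males for the receptor subunit gene Chrnb1. For the ligase gene Fbxo32 it was 0.39 and -0.17. Of the junction genes, Lama4 had 2.17 and -0.50. Of the denervation genes, Gadd45a had -0.57 and 0.081, Runx1 -0.070 and 0.16 and Hdac4 0.40 and -0.39. Of the myogenic genes, Id1 had -0.94 and 0.33. Of the atrophy genes, Bnip3 had 0.92 and -0.14 and Eif4ebp1 0.70 and -0.21.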

How the results depend on the processing

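Of the 9 members 7 had a mean under 1 RPKM, and the counts of members at least 2-fold higher or lower were 0 under each planned pseudocount, filter and scaling. These counts were largely fixed in advance. The filtered settings held no members but Chrnb1 and Fbxo32. Without a filter, a gene going from unlisted to under 1 RPKM cannot reach 2-fold at a pseudocount of 1. There Trim63 in females missed the cut at 0.97 (log2). Alternatives that combine no filter with a pseudocount of 0.1, or use plain ratios, were chosen after seeing the data. The count of members at least 2-fold higher in old females was 0, against 4 without a filter at a pseudocount of 0.1 (Chrna1, Chrne, Myog and Trim63) and 1 by plain ratio. Genes of the 4 related lists at least 2-fold higher numbered 5 in females and 1 in males. They were 0 in both with a pseudocount of 5 or a mean of at least 5 RPKM, 4 in males with a pseudocount of 0.1, 13 and 6 without a filter at 0.1, and 10 and 5 by plain ratio. In limma 0 to 153 genes passed when a library was left out, 153 without the old male. These fits have no sex term and 1 library in an arm, assumed to vary like the other age, so nothing is averaged over the sexes in them. The other settings gave 0. With the median of the muscle reference genes in place of Acta1, Fbxo32 was lower by -1.91 in females and -1.63 in males (log2), Chrnb1 by -1.70 and -1.52, and Trim63 by -0.33 and -0.47, and the counts at least 2-fold lower (2 and 3) were the same. Chrnb1 and Fbxo32 kept their signs in each sex under both scalings; a pseudocount or filter cannot change the sign of a difference between 2 single values. No paired analysis was possible because the labels give no replicate numbers and each group has 1 library. Myog, at 7 read lengths, and Chrne, at 21.0, are limited by depth.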
